A study of Mus musculus with 5 samples.

Results

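The genes described here are DNA damage checkpoint and repair genes, followed in mammary glands of cyclin D1 mice and of control mice. They comprise 43 named genes of the ATR and ATM checkpoint, the MRE11-RAD50-NBN complex, homologous recombination, the Fanconi pathway, mismatch repair, end joining and single-strand break repair. Each gene was read from its probe set of highest mean level on a whole-transcript array. A probe set was found for 41 of the 43, out of 19938 genes tested, and each of the 41 had one that the annotation pairs with that gene alone. Rbbp8 and Xrcc2 were not analysed here.

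The 3 cyclin D1 mice carried the transgenes rtTA and CCND1, and the 2 control mice carried rtTA alone, which the design text places under the MMTV promoter. All 5 were FvB/N females aged 8 weeks, and each array held the total RNA of 1 separate mouse. rtTA is a transactivator that turns on a responder gene when doxycycline is present, and MMTV is a viral promoter active in mammary epithelium. The labels give 7 days of doxycycline, worded for a KE mutant of CCND1, and do not state whether the controls received the drug. Whole gland was measured, so more cells of a type and more RNA per cell cannot be told apart.

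Checkpoint kinases act as relays. ATR, brought to single-stranded DNA by its partner ATRIP and activated by TOPBP1, phosphorylates CHK1 with the help of claspin, whereas ATM is activated by the MRE11-RAD50-NBN (MRN) complex at broken ends and phosphorylates CHK2. Breaks are then repaired by copying the sister chromatid (homologous recombination) or by direct ligation (end joining). Many of these genes are transcribed mostly in dividing cells, under E2F factors that the cyclin D1 kinases release from the RB protein. Whether this route acted in the cyclin D1 glands, whose label names a KE mutant of CCND1, was not tested.

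Sequence upstream of the 2 checkpoint genes that passed the test (values below) and had an entry in RefSeq's promoter table is shown here because both encode parts of one relay. The stretch is the 250 bases before an annotated start in GRCm38.p6, on the plus strand for both genes. Windows reaching 50 bases past the start were searched on both strands for the E2F letters TTTCGCGC and TTTGGCGC, for TTTGAA, the cell cycle homology region, and for CCAAT. Capitals mark matches.
Atr, chr9:95857347-95857596: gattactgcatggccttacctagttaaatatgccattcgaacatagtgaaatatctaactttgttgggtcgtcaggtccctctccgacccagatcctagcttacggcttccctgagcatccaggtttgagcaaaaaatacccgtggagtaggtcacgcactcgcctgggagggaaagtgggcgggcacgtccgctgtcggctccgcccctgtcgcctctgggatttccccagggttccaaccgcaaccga
Clspn, chr4:126556730-126556979: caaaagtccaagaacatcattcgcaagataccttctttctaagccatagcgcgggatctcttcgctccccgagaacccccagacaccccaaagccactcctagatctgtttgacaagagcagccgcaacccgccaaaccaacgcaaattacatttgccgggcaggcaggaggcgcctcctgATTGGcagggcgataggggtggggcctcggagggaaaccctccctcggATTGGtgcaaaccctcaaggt

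The Atr window held none of these letters. Clspn had CCAAT on the opposite strand at -69 and -21 from its start, and E2F letters beyond the stretch shown. Of the 35 members with a promoter entry, 4 held an E2F match (11.4%), against 0.929% of the 27025 genes in the table. These 4 windows, on the gene's own strand and with the match in capitals, are shown because they are the members that carry it.
Clspn, chr4:126556993-126557016, match from +22: gcgtctggGCGCGAAAgctcgaac
Topbp1, chr9:103305190-103305213, match from -129: ctcggttgGCGCGAAAgtcggttc
Rad51c, chr11:87404480-87404503, minus strand, match from +12: tccagcgcTTTCGCGCctcttgct
Msh3, chr13:92355186-92355213, minus strand, match from -202: ccgtcaagTTTGGCGCGAAAtcgcagcc

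Msh3 carried both E2F forms, overlapping. CCAAT stood in 20 of the 35 (57.1%, against 41.1% of genes) and TTTGAA in 1, Bard1 (2.86%, against 20.2%). A match to letters is a description and no measured site. The 4 genes with E2F letters differed in their values: Clspn passed the test below, and Topbp1, Msh3 and Rad51c did not.

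Values are log2 expression, so a difference of 1 is a doubling of signal. The arrays did not have the same range: the SD over genes was 1.20 to 1.38 on the cyclin D1 arrays and 0.735 and 0.926 on the controls. Bright genes therefore tended to be higher and dim genes lower in cyclin D1 glands, with a median log2 fold change of 1.59 in the brightest decile of genes and -0.29 in the dimmest. For this reason differences are also given after a second quantile normalization across the 5 arrays, called renormalized below, where those medians were 0.36 and -0.08. The mean of 1027 olfactory receptor genes on each array, 1.97 to 2.24 in cyclin D1 glands and 2.52 and 2.38 in controls, served as a rough floor. In Blm, Wrn, Brca2, Rad51c, Rad51ap1, Fancb, Fancm, Mre11a and Xrcc6 1 control lay at or below it and in Brca1, Rad54l, Palb2 and Fancd2 both did, so their differences are inexact. Ccnd1 itself stood at 4.63, 4.92 and 4.0 in cyclin D1 glands, against 4.04 and 3.49 in controls, with overlap. Its log2 difference was 0.75 (limma adjusted p = 0.218), and the sign turned when renormalized (-0.14). Whether this probe set reads the CCND1 transgene was not tested. Markers of luminal and alveolar epithelium were present, at a summed linear level of 5950 to 7970 over 8 of 10 listed genes in cyclin D1 glands, against 1740 and 3010 in controls, with a median log2 fold change of 1.96 (0.77 renormalized). The sum over 6 myoepithelial markers was 153 to 300, against 60.5 and 91.3, with a median log2 fold change of 0.45 (0.37 renormalized). Over 7 adipocyte markers the sum was 1720, 415 and 1240 in cyclin D1 replicates 1 to 3, against 765 and 944. Their median log2 fold change was -0.06 (-1.01 renormalized). The sum over 28 of 30 S phase and mitosis genes was 686 to 1160, against 226 and 298, and the part of any of these in the values below was not tested.

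Over the whole set, 3 genes rose, Atr, Wrn and Clspn, and 0 fell. That is 7.32% of the 41, near the 5.38% of all 19938 genes that limma called higher (adjusted p under 0.05), while 0.687% were called lower. As deposited, with any 1 cyclin D1 array left out, 0 members passed. Without cyclin D1 replicate 1 or 2, 0 of all 19938 genes passed, so those fits say nothing particular to the members. Without replicate 3, 299 genes were higher and 2 lower. The fold changes of the set were nevertheless mostly positive: 32 of 41 (78.0%) were above 0, against 44.3% of all genes, with a median log2 fold change of 0.39, against -0.05. After renormalization 33 of 41 were above 0, with a median of 0.33, against -0.02, and 0 passed, against 0.256% of all genes called higher and 0.105% lower. At an unadjusted p under 0.05, 15 of 41 were higher (36.6%, against 16.2% of all genes) and 0 lower (against 10.1%), and after renormalization 12 were higher (29.3%, against 9.33%) and 1 lower (against 9.4%). All 3 cyclin D1 values lay above both controls in 18 members (43.9%, against 22.4% of all genes) and below both in 4 (9.76%, against 22.6%). Renormalized, the counts were 17 (background 20.1%) and 4 (19.5%). These counts include members near the floor described above. Above it on all arrays were 28 members and 12013 genes. Of these 28, 20 had fold changes above 0 on either scale, against 55.2% of those genes (45.1% renormalized). As deposited, 14 of the 28 lay above both controls, against 31.7%, and 4 below both, against 17.0%. Renormalized, 7 of the 28 lay above both, against 19.0%, and 4 below both, against 23.0%.

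**Figure D1:**
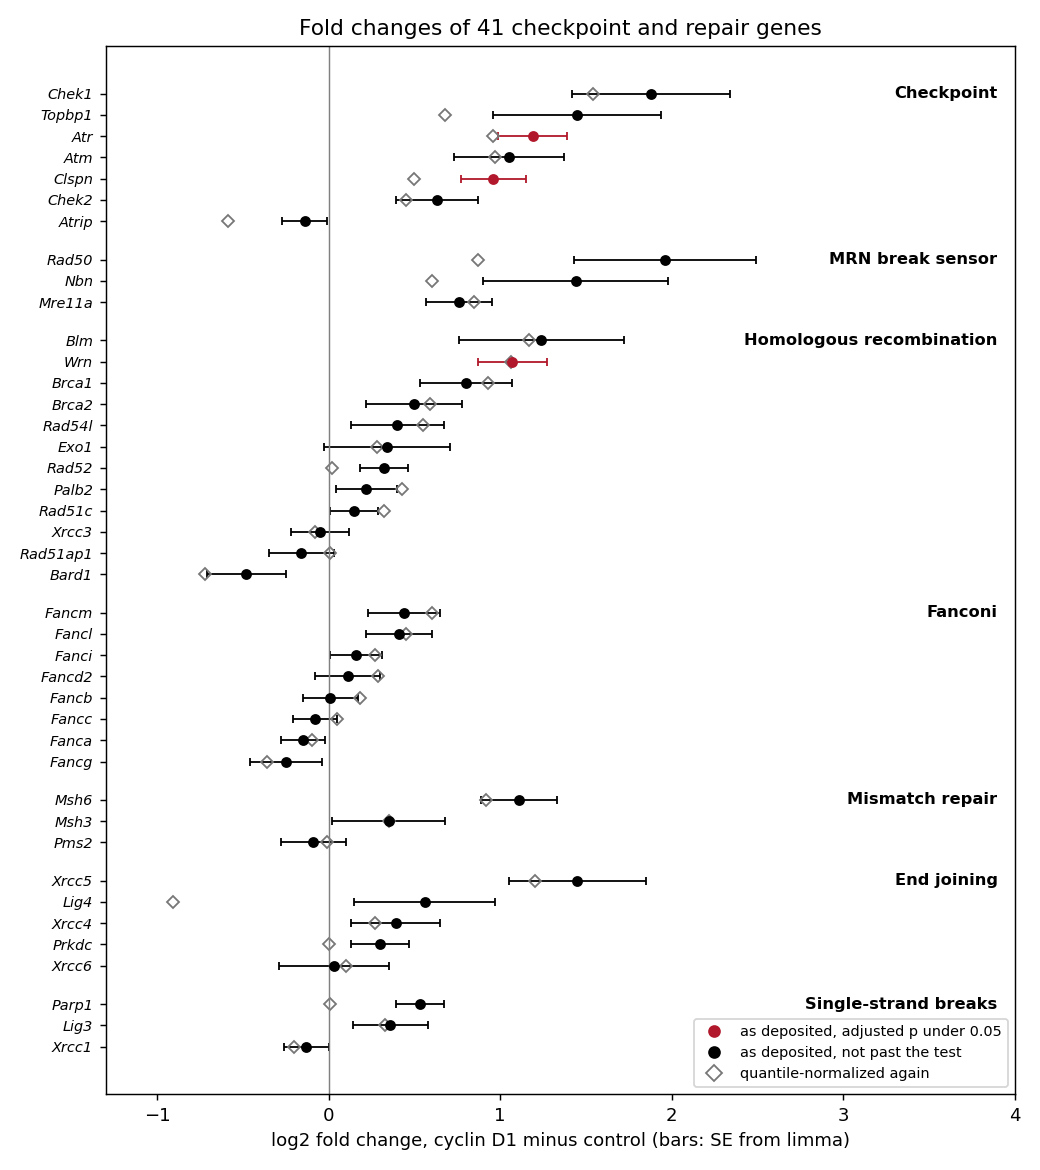
Log2 fold change of each of the 41 genes, cyclin D1 minus control, with bars for the SE from limma and open diamonds for the renormalized difference. Genes are grouped by pathway and ordered by fold change; Atr, Clspn and Wrn, in red, passed, and the values of Brca1, Rad54l, Palb2 and Fancd2 are inexact because both controls lay at or below the floor.

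Set against genes of like brightness, 31 of the 41 had a fold change above the median of their own decile of mean expression, and 33 after renormalization. In the brightest decile Topbp1 and Nbn lay 0.14 and 0.15 below that median and Lig4 1.03 below it, whereas Rad50 lay 0.37 above. In the ninth, Chek1 lay 1.22 above, Atr 0.52, Clspn 0.30, and Parp1 0.14 below. Among dimmer genes Xrcc5 lay 1.28 above its decile, Blm 1.07, Wrn 1.04, Brca1 0.96 and Msh6 0.94, whereas Bard1 was at -0.51 from its decile's median, Atrip at -0.31 and Fancg at -0.28. A gene's mean level includes the values of its fold change, so this comparison is a description.

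**Figure D2:**
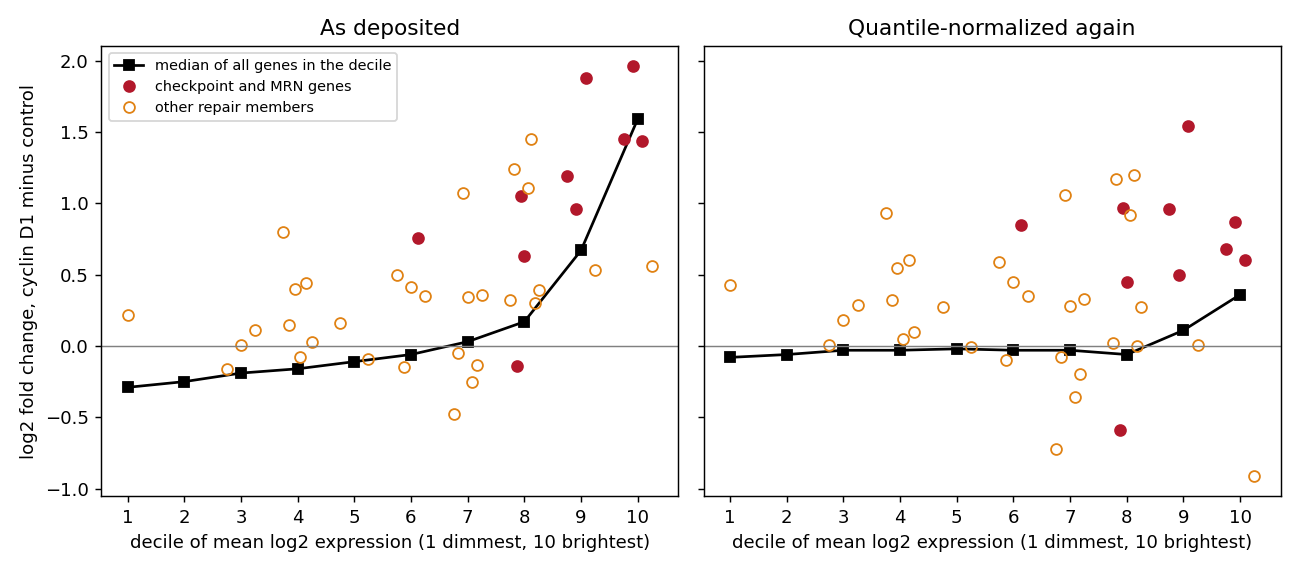
Log2 fold change, cyclin D1 minus control, of the 41 genes against the decile of mean log2 expression, as deposited (left) and renormalized (right). Black squares are medians of all genes in a decile, from -0.29 to 1.59 on the left and -0.08 to 0.36 on the right; filled points are checkpoint and MRN genes and open points the other members.

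In the ATR branch of the checkpoint 2 of 5 genes passed, Atr and Clspn. Both lie in the ninth brightness decile, where 13.4% of all genes were called higher, against 5.38% of all 19938. Atr, the kinase that responds to stalled replication forks, had log2 values of 4.42, 4.26 and 3.94 in cyclin D1 glands, against 2.86 and 3.18 in controls. The groups did not overlap, and Atr rose 2.28-fold (log2 1.19, SE 0.20, limma adjusted p = 0.0373). Clspn, which encodes the adaptor claspin that presents CHK1 to ATR, stood at 4.10, 4.44 and 4.57 in cyclin D1 glands, against 3.50 and 3.31 in controls. It rose 1.95-fold (SE 0.19 on the log2 scale, limma adjusted p = 0.0499, a value just under the threshold). After renormalization Atr differed by 0.96 (adjusted p = 0.0753) and Clspn by 0.50 (adjusted p = 0.353), with overlapping values for Clspn. As deposited, neither call held with any 1 cyclin D1 array left out: the limma adjusted p was 0.0634 to 0.145 for Atr and 0.113 to 0.168 for Clspn. Without cyclin D1 replicate 1 or 2, however, 0 of all genes passed. With control 1 or control 2 left out, and so a single control, the differences were 1.03 and 1.35 for Atr and 1.06 and 0.87 for Clspn.

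Chek1, which encodes the kinase CHK1 below ATR, had the widest difference of the branch without passing. Its values were 3.95, 5.47 and 5.08 in cyclin D1 glands, against 3.00 and 2.89 in controls, 1.88 apart on the log2 scale (limma SE 0.46, adjusted p = 0.0755), or 1.54 after renormalization. Every cyclin D1 value lay above both controls, and cyclin D1 replicate 1 lay well under the other 2. Topbp1, the ATR activator, stood at 4.85, 5.66 and 5.22, against 3.05 and 4.55 in controls. Its difference of 1.45 (SE 0.49, adjusted p = 0.142) was 0.70 without control 1. Renormalized values overlapped with a difference of 0.68, which was -0.38 when control 1 was also left out. Atrip, which tethers ATR to single-stranded DNA, had slightly lower values, at 3.58, 3.42 and 3.58, against 3.62 and 3.71 in controls, so that the difference was -0.14 (SE 0.13, adjusted p = 0.527), or -0.59 after renormalization.

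The ATM branch did not pass singly. Atm, the kinase activated at double-strand breaks, had 3.18, 4.23 and 3.81 in cyclin D1 glands, against 2.79 and 2.59 in controls, a difference of 1.05 (SE 0.32, limma adjusted p = 0.121). The values did not overlap, and the renormalized difference of 0.97 was close to the deposited one. Chek2, encoding the kinase CHK2 below ATM, stood at 3.68, 4.0 and 3.58, against 2.82 and 3.43 in controls (log2 0.63, SE 0.24, adjusted p = 0.180). Renormalized, Chek2 differed by 0.45 with overlap, and without control 1 it differed by 0.32, or 0.09 renormalized.

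All 3 genes of the MRN break sensor had higher values in each cyclin D1 gland than in either control, as did 22.4% of all genes. In limma 0 passed, and 3 were higher at an unadjusted p under 0.05, against 16.2% of all genes. Rad50, an ATPase that bridges DNA ends, stood at 5.62, 6.15 and 6.70, against 3.44 and 4.95 in controls, a difference of 1.96 (SE 0.53, limma adjusted p = 0.0942), the largest among the 41 as deposited with all arrays. Renormalized, those of Chek1, Xrcc5 and Blm, among others, were larger than that of Rad50. Nbn, which links the complex to ATM, stood at 5.55, 5.25 and 5.50, against 3.05 and 4.93 (log2 1.44, SE 0.54, adjusted p = 0.172). In both genes control 2 lay nearer the cyclin D1 glands and control 1 far below, and without control 1 the deposited differences were 1.20 and 0.50. The renormalized differences were 0.87 for Rad50 and 0.60 for Nbn with overlap, and -0.03 and -0.70 when control 1 was also left out. A second, dimmer Nbn probe set had a difference of -0.23. Mre11a, the nuclease, had 3.08, 3.20 and 3.34 in cyclin D1 glands, against 2.21 and 2.67 in controls (log2 0.76, SE 0.19, adjusted p = 0.0783), and was the only one of the 3 whose groups stayed apart after renormalization, at 0.85. The median log2 fold change of the 10 checkpoint and MRN genes was 1.12, against 0.32 for the other 31 members, and 0.77, against 0.27, after renormalization. The difference between these medians was not tested. The 10 are mostly brighter genes, and 7 of them lay above the median of their own decile, against 24 of the 31 (9 and 24 renormalized).

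**Figure D3:**
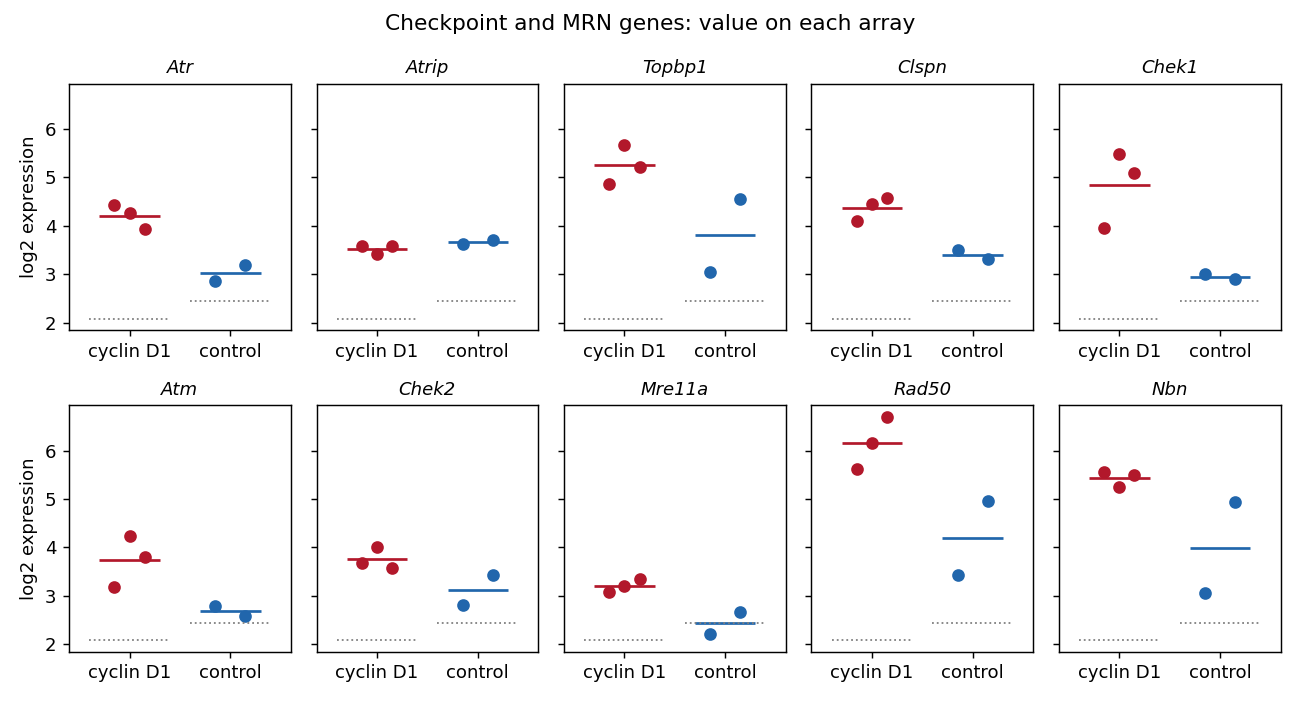
Log2 expression of the 7 checkpoint and 3 MRN genes on each array, cyclin D1 glands left in red and controls right in blue, with lines at the group means and dotted lines at the group's mean floor. In 9 of the 10 genes all cyclin D1 points lie above both controls, against 22.4% of all genes. Renormalized, this held in 4 of the 10, against 20.1%. Atrip lies below, and the controls of Topbp1, Rad50 and Nbn lie more than 1 apart.

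Among 12 measured genes of homologous recombination 1 rose (8.33%, against 5.38% of all genes), 0 fell, and the median log2 fold change was 0.33 (0.37 renormalized). The RecQ helicases, which unwind recombination intermediates, had the largest differences. Wrn, mutated in human Werner syndrome, stood at 3.64, 3.68 and 3.68 in cyclin D1 glands, against 2.32 and 2.87 in controls. The cyclin D1 values were nearly equal to each other, and Wrn rose 2.10-fold (log2 1.07, SE 0.20, limma adjusted p = 0.0426). Renormalized, Wrn differed by 1.06 (adjusted p = 0.0939). As deposited, its call was lost without any 1 of the cyclin D1 arrays (limma adjusted p = 0.113 to 0.164), though without replicate 1 or 2 0 of all genes passed. The Wrn difference was 0.79 without control 1 and 1.34 without control 2, each with a single control left. Blm, mutated in human Bloom syndrome, had 3.06, 4.55 and 4.01, against 2.28 and 2.99 in controls, a difference of 1.24 (SE 0.48, adjusted p = 0.182). Cyclin D1 replicate 1 was barely above control 2 for Blm.

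The BRCA genes had unlike values. Brca1, a ubiquitin ligase subunit that promotes end resection, stood at 2.73, 3.40 and 2.61 in cyclin D1 glands, against 2.09 and 2.12 in controls. Both controls lay below the floor. With the floor in their place the log2 difference of Brca1 was 0.46, a bound that leaves out the spread between arrays. The measured values gave a limma adjusted p of 0.137. Bard1, its obligate partner, had 2.72, 2.82 and 2.92, against 3.65 and 2.95 in controls, a difference of -0.48 (SE 0.23, adjusted p = 0.261) and of -0.72 renormalized. All cyclin D1 values of Bard1 thus lay below both controls, on the other side from Brca1, and this contrast between the partners was not tested. Without control 1 the Bard1 difference was -0.14, or -0.07 renormalized. Of the other probe sets of Bard1, 1 differed by -0.56 and 1 by 0.13. Brca2, a mediator of homologous recombination, stood at 2.54, 3.28 and 3.29, against 2.42 and 2.66, with overlap (log2 0.50, SE 0.28, adjusted p = 0.310). Palb2, which joins BRCA1 to BRCA2, lay at or below the floor in both controls and in 1 cyclin D1 gland, and has no interpretable difference.

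The other genes of homologous recombination had smaller differences, and 0 of these 6 passed, also at an unadjusted p under 0.05. Rad54l, a motor that helps strand invasion, had 2.24, 2.98 and 2.96 in cyclin D1 glands, against 2.36 and 2.30 in controls, both below the floor. With the floor in place of both controls the difference was 0.28, a bound that leaves out the spread between arrays. The measured values gave a limma adjusted p of 0.381. Cyclin D1 replicate 1 lay below both controls. Rad52, a strand annealing protein, had 3.60, 3.86 and 3.66, against 3.39 and 3.39, a difference of 0.32 (SE 0.14, adjusted p = 0.229) that was 0.02 when renormalized. Exo1, an exonuclease of resection and of mismatch repair, had 2.63, 3.82 and 3.23, against 3.09 and 2.68 (log2 0.34, SE 0.37, adjusted p = 0.584). Rad51c and Xrcc3, whose products form a complex in recombination, differed by 0.15 (SE 0.14, adjusted p = 0.495) and -0.05 (SE 0.17, adjusted p = 0.863). Rad51ap1, an accessory factor of recombination, differed by -0.16 (SE 0.19, adjusted p = 0.613). The groups overlapped in all 3.

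In the Fanconi pathway, which repairs DNA crosslinks, 0 of 8 genes passed on either scale. The median log2 fold change was 0.06 (0.22 renormalized). As deposited, 0 of the 8 were higher or lower at an unadjusted limma p under 0.05. Renormalized, 2 were higher at that p and 0 lower, against 9.33% and 9.4% of all genes. All cyclin D1 values lay above both controls in 2 of the 8 and below both in 1. Renormalized, these counts were 4 and 1, against 20.1% and 19.5% of all genes. The largest differences were those of Fancm, the translocase that recruits the core complex, and Fancl, the ubiquitin ligase of that complex. Fancm had 2.41, 2.98 and 2.82 in cyclin D1 glands, against 2.17 and 2.41 in controls (log2 0.44, SE 0.21, limma adjusted p = 0.259). Fancl had 2.84, 3.31 and 3.26, against 2.71 and 2.74 (log2 0.41, SE 0.19, adjusted p = 0.239), without overlap. Fanci, which encodes one partner of the dimer that FANCL modifies, had 2.63, 2.74 and 2.97, against 2.62 and 2.62, and Fancd2, its partner, lay below the floor in both controls, so its difference is not interpretable. The core complex genes Fanca, Fancb, Fancc and Fancg differed by -0.15, 0.01, -0.08 and -0.25, with adjusted p of 0.473 to 0.967. Of these, Fanca alone did not overlap, with 2.68, 2.79 and 2.79 in cyclin D1 glands, against 2.89 and 2.91 in controls.

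Of the 3 mismatch repair genes, Msh6 came closest to the threshold. Msh6, which finds base mismatches, stood at 3.97, 4.24 and 3.75 in cyclin D1 glands, against 3.10 and 2.65 in controls, without overlap. Its log2 difference was 1.11 (SE 0.22, limma adjusted p = 0.0511) and 0.92 after renormalization (adjusted p = 0.112). Msh3, which finds larger loops, had 2.73, 3.62 and 2.86, against 2.97 and 2.46 (log2 0.35, SE 0.33, adjusted p = 0.515). Pms2, an endonuclease subunit, had 2.47, 2.82 and 2.53, against 2.90 and 2.50 (log2 -0.09, SE 0.19, adjusted p = 0.784). Both overlapped.

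End joining showed unlike values for the 2 Ku subunits, which form one ring around DNA ends. Xrcc5 (Ku80) stood at 3.75, 4.92 and 4.01 in cyclin D1 glands, against 3.10 and 2.45 in controls, a difference of 1.45 (SE 0.40, limma adjusted p = 0.0996) and of 1.20 renormalized, without overlap on either scale. Xrcc6 (Ku70) had 2.52, 2.52 and 2.66, against 3.06 and 2.01, all 3 lying between the controls, with a difference of 0.03 (SE 0.32, adjusted p = 0.960). Prkdc, the kinase that Ku recruits, had 3.61, 3.79 and 3.82, against 3.27 and 3.61 (log2 0.30, SE 0.17, adjusted p = 0.309), and 0.00 renormalized. The ligase gene Lig4 had 4.64, 5.27 and 6.05, against 4.75 and 4.77, so that its difference of 0.56 (SE 0.41, adjusted p = 0.420) was -0.91 renormalized. Xrcc4, the scaffold of that ligase, differed by 0.39 (SE 0.26, adjusted p = 0.372). In 4 of these 5 genes the groups overlapped.

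In single-strand break repair 0 of 3 genes passed (1 at an unadjusted p under 0.05). Parp1, the sensor that makes poly(ADP-ribose) at nicks, had 4.0, 4.19 and 4.0 in cyclin D1 glands, against 3.61 and 3.47 in controls, a difference of 0.53 (SE 0.14, limma adjusted p = 0.0920) that was 0.01 renormalized. Xrcc1, the scaffold that PARP1 recruits, had 3.03, 3.03 and 2.99, against 3.21 and 3.09 (log2 -0.13, SE 0.13, adjusted p = 0.528), with all cyclin D1 values the lower. Lig3, the ligase bound to XRCC1, had 3.26, 3.55 and 3.15, against 2.69 and 3.21, with overlap (log2 0.36, SE 0.22, adjusted p = 0.346).

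**Figure D4:**
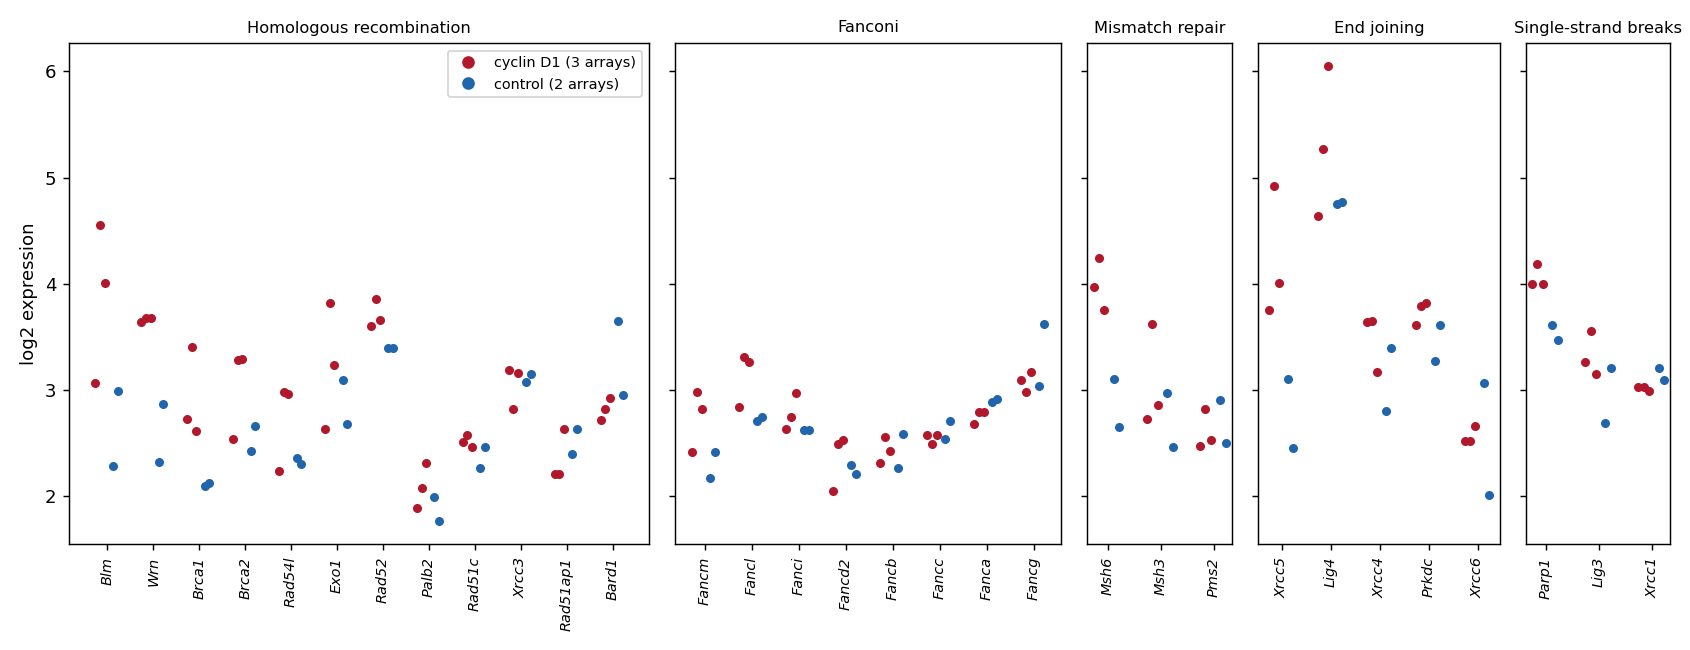
Log2 expression of the 31 members outside the checkpoint and MRN groups on each array, with the 3 cyclin D1 values in red left of the 2 control values in blue for every gene. Groups are separate with cyclin D1 above for Wrn, Blm, Brca1, Rad52, Fancl, Fanci, Msh6, Xrcc5 and Parp1, and with cyclin D1 below for Bard1, Fanca and Xrcc1. These are 29.0% and 9.68% of the 31, against 22.4% and 22.6% of all genes. Renormalized, 13 of the 31 lay above both controls (41.9%, against 20.1%) and 3 below both (9.68%, against 19.5%).

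The cyclin D1 glands were not alike. Replicate 1 had the lowest of the 3 values in 28 of the 41 genes (68.3%), against 36.0% of all genes, and replicate 2 the highest in 21 (51.2%, against 26.7%). After renormalization the shares for replicate 1 were 63.4% and 31.1%. Chek1, Blm, Atm, Brca2, Exo1, Rad54l and Fancm each had their lowest cyclin D1 value in replicate 1. The summed S phase and mitosis level was also lowest there, at 686, against 1160 and 1120 in replicates 2 and 3, and its part in this pattern was not tested. Without replicate 1 the median log2 fold change of the 41 was 0.56. The controls also differed. Over all genes they correlated with each other at 0.779 (Pearson r), whereas control 2 correlated with the cyclin D1 arrays at 0.841 to 0.884. Control 1 correlated with the cyclin D1 arrays at 0.701 to 0.743. Topbp1, Rad50, Nbn and Xrcc6 had control values more than 1 apart, the first 3 with control 1 the lower and Xrcc6 with control 2 the lower.

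Further repair and checkpoint genes were read from lists that do not hold the members. Of 106 measured, 6 rose and 0 fell. At an unadjusted p under 0.05, 27 were higher (25.5%, against 16.2% of all genes) and 3 lower (against 10.1%). The share that rose, 5.66%, was again near the background of 5.38%. The median log2 fold change was 0.18 (0.11 renormalized), and renormalized 0 of the 106 passed. At an unadjusted p under 0.05, renormalized, 23 were higher (21.7%, against 9.33% of all genes) and 3 lower (against 9.4%). In the list of homologous recombination Brcc3, a deubiquitinase of the BRCA1-A complex, had 6.32, 6.67 and 6.32 in cyclin D1 glands, against 2.53 and 3.59 in controls. It rose by a log2 fold change of 3.38 (limma SE 0.34, adjusted p = 0.0168), and the renormalized value of 2.70 did not pass (adjusted p = 0.0573). Uimc1, which encodes RAP80, the ubiquitin reader of the same complex, rose by 1.17 (SE 0.21, adjusted p = 0.0404; 1.14 renormalized), with control 2 below the floor. Fignl1, an ATPase of recombination, rose by 0.98 (SE 0.17, adjusted p = 0.0391; 0.94 renormalized). Rmi1, a partner of BLM, differed by 1.84 (adjusted p = 0.0541; 1.64 renormalized) without passing. In Rmi1, Usp1, Rev1, Etaa1, Mdm2 and Sesn1 1 control lay at or below the floor, so these differences are inexact. The rises of Brcc3, Uimc1 and Fignl1 are 3 of 32 genes in that list (9.38%, against 5.38% of all genes), with a list median of 0.15.

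Among 18 other checkpoint genes Rif1, which protects ends against resection, rose by 1.59 (SE 0.27, limma adjusted p = 0.0377; 1.28 renormalized), and the differences of Rnf168, Tipin and Etaa1 (0.90, 1.54 and 0.82) did not pass. Tipin and Etaa1 were at 0.96 and 0.89 renormalized. The one of Rnf168, a ubiquitin ligase at breaks, had the opposite sign renormalized (-0.81). Among 37 genes of base and nucleotide excision Gtf2h1, a TFIIH subunit, rose by 1.73 (adjusted p = 0.0258; 1.31 renormalized) and Rad23b, a partner of the XPC damage sensor, by 0.92 (adjusted p = 0.0475), the second with -0.64 renormalized. Pcna, the sliding clamp of replication and repair, had 8.19, 8.56 and 8.78 in cyclin D1 glands, against 3.81 and 6.24 in controls, and did not pass (log2 3.48, SE 0.71, adjusted p = 0.0539; 2.09 renormalized). Polb, the polymerase of base excision, differed by 1.16 (adjusted p = 0.0644; 0.87 renormalized). Of 12 other Fanconi genes 0 passed (3 at an unadjusted p under 0.05), led by Usp1, the deubiquitinase of FANCD2 (log2 1.69, adjusted p = 0.0686; 1.53 renormalized), and Rev1 (1.13), Rev3l (1.58) and Fan1 (-0.31) did not pass either; renormalized these were at 1.02, 0.89 and -0.22. Both other mismatch genes measured, Pms1 and Mlh3, lay below the floor in both controls. The other end joining genes, Poll, Nhej1, Polm, Dntt and 1 more, all had differences below 0, from -0.63 to -0.14, and 0 passed (1 at an unadjusted p under 0.05). Each of the 4 named had at least 1 array at or below the floor, Dntt in both controls, so these differences are inexact, and Dntt was at 0.08 renormalized. The floor itself was lower in cyclin D1 glands (1.97 to 2.24, against 2.52 and 2.38), and its part in these signs was not tested. The list median was -0.32 (-0.35 renormalized).

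Genes that p53 turns on after damage were a separate list. Of 26 measured 0 passed in limma, and the median was 0.30 (0.10 renormalized). At an unadjusted p under 0.05, 8 were higher and 2 lower (16.2% and 10.1% of all genes), and renormalized 4 were higher and 3 lower (9.33% and 9.4%). Mdm2, the ligase that degrades p53, had 4.08, 5.05 and 3.96 in cyclin D1 glands, against 2.46 and 2.78 in controls (log2 1.74, SE 0.36, adjusted p = 0.0570; 1.55 renormalized). Ccng1 differed by 1.90 as deposited but 0.10 renormalized, Ei24 by 2.40 (1.38 renormalized) and Sesn1 by 1.16 (1.12 renormalized). By comparison, 6 of 28 S phase and mitosis genes rose (21.4%, against 5.38% of all genes), with a median of 0.87 (0.88 renormalized). Kif11, Top2a, Ndc80 and Mcm6 had the smallest p, and Kif11 alone of these 4 passed renormalized. Both controls of Kif11 and 1 control of Mcm6 lay at or below the floor, so the differences of these genes are inexact. Of 28 ribosomal protein genes, used by every cell, 4 rose (14.3%), Rpl19, Rps4x, Rpl10a and Rpl7, and the median of 1.40 became 0.30 renormalized.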

How the data were processed

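The authors deposited log2 expression values per probe set, produced by RMA in Affymetrix Expression Console 1.1, per the submitters' processing notes; that the log is to base 2 follows from their range. Background settings, and any arrays normalized alongside, are not given in the sources used here. Precision is limited by the number of arrays. Of 35556 probe sets, 21789 pair with 1 gene symbol, 1621 with several and 12146 with none; the brightest probe set per symbol gave 19938 genes. No dim genes were left out.

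Cyclin D1 minus control was fitted with limma 3.58.1 in R 4.3.3 (lmFit, eBayes; two-sided, Benjamini-Hochberg over all genes, threshold 0.05), checked on simulated data. Groups came from sample titles. Where both controls lay at or below the floor of olfactory receptors, the difference is a bound with the floor as control value. Named were all members, Ccnd1 and the 4 genes of smallest p in each other list. Members and lists were chosen with earlier results of these data known. Replicate numbers came from the titles only. Promoter windows are RefSeq's, GRCm38.p6; all 41 symbols matched RefSeq.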

Additional observations from a re-analysis of the deposited data

How the results depend on the processing

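The median log2 fold change of the members stayed above 0 in the 17 alternatives run. Over the 41 it was 0.32 to 0.46 with all 5 arrays and 0.26 to 0.56 with an array left out on either scale. Among genes above the median level, which hold 29 members, it was 0.53, against 0.26 for all of those genes. In every setting run for them, 22 of the 41 were above 0 and 4 below. The calls were less stable. As deposited, 1072 genes were higher and 137 lower, and 3 members were higher. After renormalization the counts were 51, 21 and 0 members; with an intensity trend in eBayes 622 genes were higher and 1 member, Wrn; with array weights 263 were higher, 4 lower and 0 members. Among the 9969 genes above the median level 56 were lower. With the replicate number as a block (replicate block), 1137 genes were higher, 10 lower and 0 members; the titles give the numbers no shared source, and deviations of same-numbered arrays correlated at -0.026 and 0.126. Msh6 passed as well with median centring, with the mean of probe sets and among genes above the median level.

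With an array left out, on either scale, genes called higher ranged from 0 to 2221 and lower from 0 to 3154, and members from 0 to 7 higher and 0 to 3 lower. Where a control is left out, the single control that remains is assumed to vary like the cyclin D1 arrays, which alone give each gene's own spread, so calls made then say nothing about the spread between controls. The 7, without control 2 and renormalized, were Wrn, Atr, Topbp1, Chek2, Mre11a, Nbn and Msh6, and the 3 were Bard1, Atrip and Xrcc6. As deposited, 0 members passed without any 1 of the cyclin D1 arrays. At an unadjusted p under 0.05, 18, 11 and 10 of the 41 were higher without cyclin D1 replicate 1, 2 and 3. Over all 19938 genes these counts were 2648, 2628 and 3022. Without cyclin D1 replicate 1 or 2, 0 of all 19938 genes passed, so no member could. Renormalized without control 1, Xrcc6, Wrn and Msh6 passed as higher and Fancg as lower; Xrcc6, lower without control 2, has controls over 1 apart.

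Signs turned in 15 of the 41. Renormalized with all arrays, Rad51ap1 was at 0.01, Fancc at 0.05 and Lig4 at -0.91; Xrcc3 was at 0.02 with median centring, Fancb at -0.02 with array weights and Xrcc6 at -0.02 with the replicate block. With an array left out on either scale, the differences ran from -0.38 to 2.20 for Topbp1, -0.03 to 2.71 for Rad50, -0.70 to 2.38 for Nbn, -1.35 to 0.90 for Lig4, -0.50 to 0.72 for Xrcc6, -0.10 to 0.69 for Xrcc4, -0.19 to 0.47 for Prkdc, -0.27 to 0.59 for Parp1, -0.09 to 0.37 for Rad52, -0.30 to 0.16 for Rad51ap1, -0.14 to 0.07 for Xrcc3, -0.14 to 0.39 for Fancb, -0.17 to 0.17 for Fancc, -0.81 to 0.04 for Fancg and -0.29 to 0.23 for Pms2. The cause of these turns was not tested. With 2 controls, and 13 members at or below the floor in at least 1 control, small differences are not resolved.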
